A study of Mus musculus with 14 samples.

Results

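The mesothelium is the single layer of flat cells that covers the lung as the visceral pleura, secretes lubricating fluid and glycoproteins, and can become a source of matrix-producing cells after injury. Its cells carry epithelial features together with transcription factors of the embryonic coelomic lining, and a small set of genes marks them in whole lung, where they are a minor cell type. The 7 genes described here are such markers, chosen by name: Msln, Muc16, Upk3b, Lrrn4, Gpm6a, Wt1 and Bnc1. They were 7 of the 18193 genes that had a probe set (a group of probes for 1 transcript) annotated with a single symbol. The rule goes by gene name, and earlier results of these data were known when the genes were chosen. They were covered by 9 probe sets, of which Upk3b and Gpm6a had 2 each and the other 5 genes 1 each. All 9 passed the filter on low signal, so every member was tested among 12985 genes.

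Total RNA came from whole lungs of C57BL/6 mice, all 20 weeks old by their labels, and was read on 1-colour Affymetrix arrays. The groups were wild type (4 arrays, numbered 1, 3, 4 and 5), CD151KO (5 arrays), which lack the tetraspanin CD151, and CD9KO (5 arrays), which lack the tetraspanin CD9. Tetraspanins are small membrane proteins that organise integrins and other partners at the cell surface, and by its title the study asks how CD151 bears on epithelial integrity and lung fibrosis. The labels do not say how the knockouts were made or in which cells the genes were deleted. Nor do they say that the samples of a group were separate animals, and the p-values therefore cover the spread between samples alone, part of which may be technical. In whole lung, fewer mesothelial cells and less RNA per cell cannot be told apart.

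Array medians lay between 84.1 and 86.2 signal units. Cd151 measured 1058 ± 17.7 in CD151KO (SD over 5 arrays) against 5330 ± 372 in wild type (4 arrays), and Cd9 667 ± 52.3 in CD9KO against 8096 ± 69.4. Defining lung markers lay far above the filter in every group, with a mean signal of 28700 for Sftpc of alveolar type 2 cells and 22358 for Ager of type 1 cells. Wild type 1 and CD151KO 1 stood apart on the first principal component of all genes tested (-18.5 and -17.2, the other arrays -8.01 to 13.4). Its correlation with the mean of the mesothelial genes over 14 arrays was r = -0.12 (rho = -0.16).

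Among the promoters, those of Upk3b, Lrrn4, Gpm6a and Muc16 are shown. The first 3 hold a core motif of TEAD factors, the DNA-binding partners of YAP, and Muc16 is set beside them as a window without it. Over the arrays the Pearson r of Muc16 with Upk3b was 0.92 (rho = 0.69), and 0.79 without CD9KO 2. Whether the motif bears on these profiles was not tested. Each window runs from 250 bases before to 50 bases after a transcript start in RefSeq, build GRCm38.p6, and is written 5′ to 3′ on the strand of the gene. The Lrrn4 window lies inside the gene, which reaches 132894010 on its chromosome. The Muc16 gene reaches 18674821, within its window. The transcript starts used for Lrrn4 and Muc16 are thus not the outer ends of these genes. Capitals mark GGAATG or its reverse complement CATTCC.
Upk3b, chr5:136038246-136038545, plus strand: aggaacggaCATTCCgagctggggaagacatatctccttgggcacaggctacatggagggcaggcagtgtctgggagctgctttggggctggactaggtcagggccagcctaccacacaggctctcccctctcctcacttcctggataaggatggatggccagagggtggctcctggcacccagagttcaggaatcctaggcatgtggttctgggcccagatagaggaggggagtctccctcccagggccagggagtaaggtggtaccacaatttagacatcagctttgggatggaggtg
Lrrn4, chr2:132880813-132881112, minus strand: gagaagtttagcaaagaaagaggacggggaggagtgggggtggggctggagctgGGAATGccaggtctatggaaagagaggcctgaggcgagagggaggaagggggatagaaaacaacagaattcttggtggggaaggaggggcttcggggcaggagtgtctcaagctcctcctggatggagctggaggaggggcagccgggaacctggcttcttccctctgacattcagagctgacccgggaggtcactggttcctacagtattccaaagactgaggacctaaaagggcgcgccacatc
Gpm6a, chr8:54779184-54779483, plus strand: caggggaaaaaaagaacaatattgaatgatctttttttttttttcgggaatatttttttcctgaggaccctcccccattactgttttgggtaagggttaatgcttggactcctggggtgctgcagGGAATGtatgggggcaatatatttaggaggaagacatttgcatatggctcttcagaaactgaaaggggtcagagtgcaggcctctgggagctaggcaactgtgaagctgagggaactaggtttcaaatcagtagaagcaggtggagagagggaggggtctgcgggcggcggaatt
Muc16, chr9:18674554-18674853, minus strand: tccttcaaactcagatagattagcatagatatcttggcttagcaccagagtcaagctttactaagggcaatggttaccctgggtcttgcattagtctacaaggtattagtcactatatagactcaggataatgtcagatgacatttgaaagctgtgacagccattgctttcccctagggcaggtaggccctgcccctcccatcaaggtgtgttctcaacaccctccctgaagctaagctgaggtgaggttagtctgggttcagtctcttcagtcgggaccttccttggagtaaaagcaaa

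The RefSeq promoter table held 6 windows for 5 of the 7 members, without Msln and Wt1. GGAATG, searched on both strands, was found in 3 of the 6, at -241 to -236 in Upk3b, -196 to -191 in Lrrn4 and -125 to -120 in the first Gpm6a window, counted from the transcript start. Of all 32851 promoter windows of that length, 14.7% held it. The Bnc1 window, which is 83.3% G and C, held the GC box GGGCGG or its reverse complement 6 times, and the first Gpm6a window held it once, against 35.7% of all windows with at least 1 match. GCGTGGGAG, a sequence bound by WT1, was found in 0 of the 6 windows and in 0.472% of all. A match is a description of these letters only.

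The surface glycoproteins mesothelin and mucin 16 bind each other. Their transcripts had similar profiles over the arrays, as had other pairs of the set, such as Upk3b with Lrrn4 (r = 0.94) and Msln with Upk3b (0.92). Msln, which codes for the lipid-anchored protein mesothelin, had a signal of 264, 239.6, 379.8 and 324 on wild type arrays 1, 3, 4 and 5. It measured 318, 412, 404, 418 and 329 on CD151KO arrays 1 to 5, and 286, 178, 410.4, 264 and 376 on CD9KO arrays 1 to 5. The 3 groups overlapped, with CD9KO 2 the lowest and CD151KO 4 the highest of all arrays. Muc16, which codes for a large membrane mucin, measured 139, 139, 187 and 178 on the wild type arrays in the same order. Its CD151KO values were 171, 193, 186, 175 and 153, and its CD9KO values 163, 91.5, 186, 140.5 and 192. As for Msln, CD9KO 2 was lowest and wild type 1 and 3 lay at the low end of their group. Over the 14 arrays the Pearson correlation of Msln with Muc16 was 0.93 (rho = 0.83), and 0.89 without CD9KO 2.

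The membrane proteins of the set gave both the widest and the narrowest range. Upk3b, a uroplakin gene that marks mesothelium outside the bladder, had a signal of 762, 794, 929 and 954 in wild type, 955, 970.3, 1147, 1104 and 973 in CD151KO, and 766, 373, 1185, 637 and 1094 in CD9KO. Every CD151KO array lay above every wild type array, but the lowest knockout array (954.6) and the highest wild type array (953.9) were nearly equal. The CD9KO arrays held both the lowest and the highest value, 3.18 times apart. The second Upk3b probe set ran in parallel, at 539 ± 80.8 in wild type (mean and SD of 4 arrays), 665 ± 57.5 in CD151KO and 513 ± 203 in CD9KO (5 arrays each). Lrrn4, a leucine-rich repeat membrane protein first known from the nervous system, measured 173, 201, 202 and 214 in wild type, 251, 233, 309.8, 279 and 217 in CD151KO, and 174, 88.4, 255, 152 and 197 in CD9KO. Here too the CD151KO and wild type arrays did not overlap, while CD9KO overlapped both groups. Gpm6a, a membrane glycoprotein gene that neurons also express, stayed within a 1.26-fold range. It measured 1804, 1774, 1816 and 1929 in wild type, 1782, 1930.1, 1940.2, 1962 and 1714 in CD151KO, and 1826, 1560.5, 1834, 1643 and 1706 in CD9KO. CD9KO 2 was again the lowest array, and the groups overlapped. Its second probe set ranged from 764 (CD9KO 2) to 995 (CD151KO 4).

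The genes of the 2 transcription factors, Wt1 and Bnc1, lay nearest to the filter on low signal. Wt1, a zinc finger factor of the developing and adult mesothelium, measured 38.6, 54.0, 75.2 and 65.9 in wild type, 63.1, 65.4, 73.2, 67.9 and 61.5 in CD151KO, and 55.7, 38.9, 67.2, 54.3 and 57.7 in CD9KO. Its mean over all arrays, 59.9, was close to the limit of the filter (53.4). Wild type 1 and CD9KO 2 were the lowest, and the groups overlapped. Bnc1, which codes for the zinc finger protein basonuclin 1, measured 72.1, 64.9, 90.6 and 96.3 in wild type, 88.5, 95.4, 96.8, 119 and 87.4 in CD151KO, and 64.5, 48.6, 134, 82.0 and 123 in CD9KO. The CD9KO arrays spanned both ends of its range, and all groups overlapped.

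**Figure D1:**
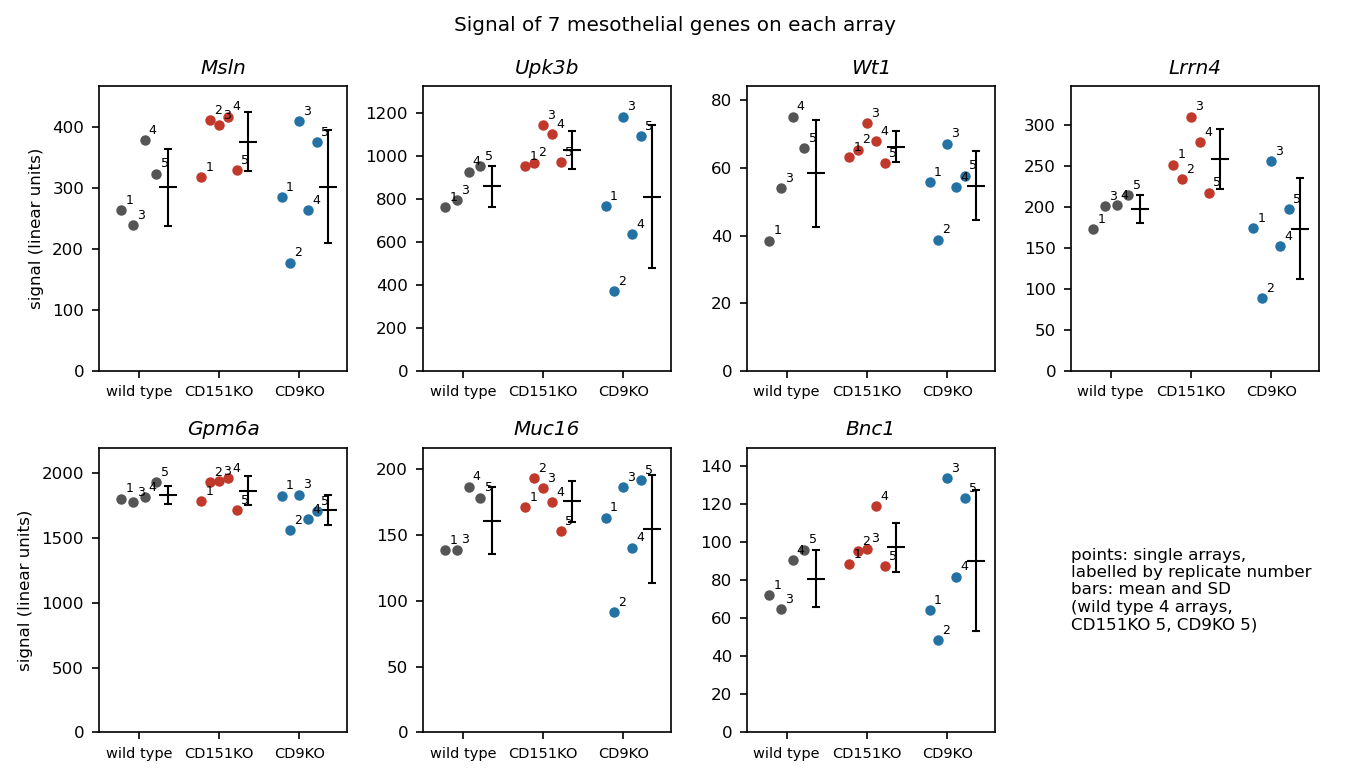
Linear signal (y axis from 0) of the 7 genes on each array, by group (x axis), with replicate numbers beside the points and the mean and SD of each group as bars (wild type 4 arrays, CD151KO 5, CD9KO 5). CD9KO number 2 is the lowest point for 6 of the 7 genes, and the CD9KO arrays are the most spread for Msln, Upk3b, Lrrn4, Gpm6a, Muc16 and Bnc1.

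In lungs without CD151, all 7 genes had a higher mean than in wild type, and 0 of 7 passed the test (limma, Benjamini-Hochberg adjusted over 12985 genes, threshold 0.05). The largest differences were those of Lrrn4, at 258 ± 36.9 (SD, n = 5) against 197 ± 17.2 (n = 4), and Msln, at 376 ± 48.5 against 302 ± 63.0. On the log2(signal + 16) scale Lrrn4 differed by 0.35 (SE 0.19, 95% interval -0.061 to 0.77, limma adjusted p = 0.534) and Msln by 0.32 (SE 0.19, interval -0.090 to 0.72, adjusted p = 0.575). Upk3b differed by 0.26 (interval -0.25 to 0.76), Bnc1 by 0.23 (-0.20 to 0.66), Wt1 by 0.17 (-0.11 to 0.45), Muc16 by 0.12 (-0.21 to 0.46) and Gpm6a by 0.026 (-0.089 to 0.14). The median of the 7 was 0.23, beside 0.0079 for all genes tested. At an unadjusted p under 0.05 there were also 0 of 7, against 11.1% of all genes, and 0.778% of all genes passed after adjustment. This fit takes its spread from all 3 groups, the widely spread CD9KO arrays included. With only the wild type and CD151KO arrays in the limma fit, 0 of 7 passed after adjustment and 3 of 7 had an unadjusted p under 0.05, against 10.4% of all genes. These were Lrrn4 (interval 0.14 to 0.57, adjusted p = 0.191), Upk3b (0.080 to 0.44, adjusted p = 0.275) and Msln (0.028 to 0.60, adjusted p = 0.429). Without CD9KO 2 they were 2 of 7, Lrrn4 (SE 0.12, adjusted p = 0.285) and Msln (SE 0.15, adjusted p = 0.439), against 11.2% of all genes. On leaving out 1 array at a time the difference ran from 0.028 (without wild type 1) to 0.28 for Wt1 and from 0.064 (without wild type 1) to 0.19 for Muc16. Upk3b and Lrrn4 were the 2 members whose groups did not overlap, both higher in CD151KO, where 2.84% of all genes did so. Of all genes tested 54% had a difference above 0, and the 7 genes varied together from array to array, so their common direction is not 7 separate observations.

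In lungs without CD9 the means lay near those of wild type, with a wide spread in the knockout. Upk3b measured 811 ± 333 (SD, n = 5) against 860 ± 95.6 in wild type (n = 4), Bnc1 90.5 ± 37.0 against 81.0 ± 14.9, and Msln 303 ± 92.5 against 302 ± 63.0. The log2 differences ran from -0.23 for Lrrn4 (interval -0.65 to 0.18) to 0.076 for Bnc1 (-0.35 to 0.50), with a median of -0.078 beside 0.0037 for all genes. Of the 7 genes 1, Bnc1, had a difference above 0, as did 51.2% of all genes. With limma 0 of 7 passed and 0 of 7 had an unadjusted p under 0.05, where 5.51% and 25.4% of all genes did. The lowest adjusted p was that of Gpm6a (0.272, log2 -0.096, interval -0.21 to 0.018). Without CD9KO 2 the difference of Lrrn4 was -0.037 and that of Bnc1 0.24. The differences of Msln, Upk3b, Wt1 and Muc16 turned above 0 without that array, at 0.14, 0.059, 0.029 and 0.079, and their adjusted p-values lay between 0.597 and 0.901.

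Between the knockouts all 7 genes had the higher mean in CD151KO, and Lrrn4 differed most. It measured 258 ± 36.9 in CD151KO (SD, n = 5) and 173 ± 61.1 in CD9KO (n = 5). The difference, 0.59 on the log2 scale (SE 0.18, interval 0.20 to 0.98), did not pass (limma adjusted p = 0.0543). Lrrn4 passed without wild type 1 (adjusted p = 0.0489), without CD9KO 3 (0.0194) and with the filter set at the 60th percentile (0.0491), and its difference was 0.39 without CD9KO 2 (adjusted p = 0.0620). Upk3b differed by 0.44 (interval -0.033 to 0.92), Msln by 0.34 (-0.039 to 0.73), Wt1 by 0.23 (-0.035 to 0.49), Muc16 by 0.20 (-0.11 to 0.52) and Bnc1 by 0.16 (-0.25 to 0.56). Gpm6a differed by 0.12 (interval 0.014 to 0.23, adjusted p = 0.132). Without CD9KO 2 these differences were 0.20 for Upk3b, 0.18 for Msln, 0.14 for Wt1, 0.045 for Muc16, -0.0055 for Bnc1 and 0.089 for Gpm6a, and 1 of 7, Lrrn4, kept an unadjusted p under 0.05. In all 0 of 7 passed, and 2 of 7 (Lrrn4 and Gpm6a) had an unadjusted p under 0.05, where 10.1% and 27.6% of all genes did. The median was 0.23, beside 0.0016 for all genes, of which 50.6% had a difference above 0. This comparison shares the CD9KO and CD151KO arrays with the other comparisons, so their values are given side by side and not set against each other.

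**Figure D2:**
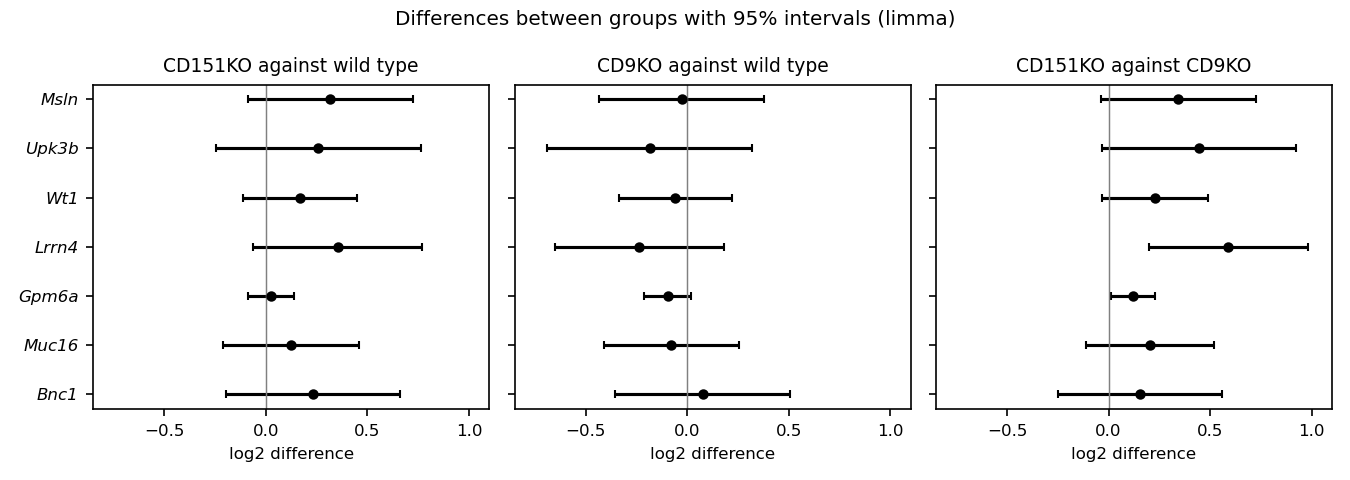
Difference of each gene on the log2(signal + 16) scale (x axis) for the 3 comparisons, with the limma estimate as a point and its 95% interval, not adjusted for multiple tests, as a bar. In this fit, which takes its spread from all 3 groups, the intervals include 0 for all 7 genes in both comparisons with wild type, and lie above 0 for Lrrn4 and Gpm6a between the knockouts.

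The spread within groups was large for 6 of the 7 genes and shared between them. The residual SD of Upk3b was 0.41 on the log2 scale, that of Bnc1 0.35, Lrrn4 0.33, Msln 0.33, Muc16 0.27 and Wt1 0.22, where the median gene had 0.088. These lay above 95.7% to 99.4% of the genes tested, and Gpm6a, with 0.084, above 45.2%. Without CD9KO 2 the residual SD was 0.26 for Upk3b, 0.28 for Bnc1, 0.21 for Lrrn4, 0.25 for Msln, 0.17 for Muc16 and 0.19 for Wt1, above 90.8% to 97.9% of all genes, and 0.075 for Gpm6a. To follow the set array by array, each gene's log2 values were turned into z scores and averaged over the 7 genes. This mean was -2.39 on CD9KO 2 and between -0.78 and 0.94 on the other 13 arrays. CD9KO 2 was the lowest array for 6 of 7 members, all but Wt1, where wild type 1 was marginally lower (38.6 against 38.9). Of all genes tested 7.36% had their lowest value on that array. CD9KO 4 and wild type 1 followed at -0.78 and -0.74, and the highest means were on CD151KO 3 (0.94), CD151KO 4 (0.93) and CD9KO 3 (0.86). The CD9KO group thus spanned nearly the whole range.

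**Figure D3:**
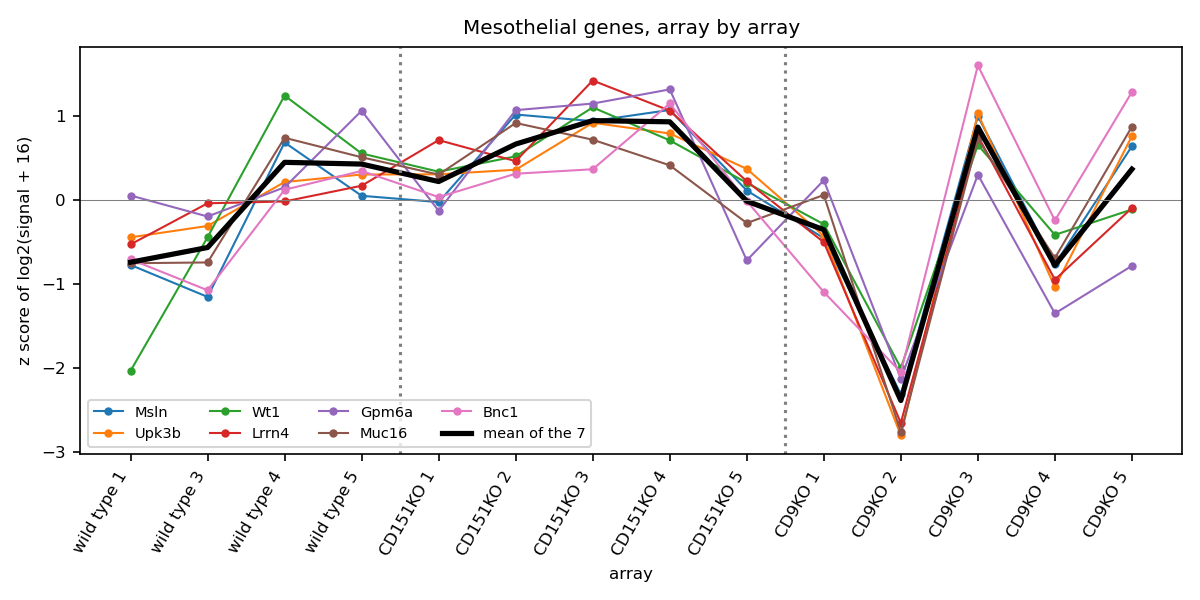
z scores of log2(signal + 16) of the 7 genes (thin lines) and their mean (thick line) on the 14 arrays, with dotted lines between the groups. The thick line is at -2.39 on CD9KO 2, and all 7 genes dip there. z scores hide the size of a change: on CD9KO 2 Gpm6a had 89.1% of the mean signal of the other CD9KO arrays, and Upk3b 40.5%.

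All 21 pairs of members correlated above 0, from r = 0.52 (Gpm6a with Bnc1, rho = 0.54) to 0.94 (Upk3b with Lrrn4, rho = 0.88), with a median of 0.82, where the median over all pairs of genes tested was 0.0065. Of the 21 pairs 57.1% had r above 0.8, against 0.586% of all pairs. Without CD9KO 2 the range was 0.24 to 0.89, the median 0.68 and the share above 0.8 was 5 of 21 pairs (23.8%), and without the 2 arrays farthest from the median of the first gene of each pair the median was 0.69. After subtraction of the group means the median was 0.81. Set against the mean of the other 6, Msln (r = 0.95, rho = 0.92) and Upk3b (r = 0.95, rho = 0.86) ranked number 1 among 12979 genes, Muc16 2 (r = 0.94), Lrrn4 3 (r = 0.92), Bnc1 9 (r = 0.82), Wt1 10 (r = 0.83) and Gpm6a 21 (r = 0.74). Without CD9KO 2 the ranks were 1, 1, 3, 6, 30, 14 and 298 in the same order. Values of 1 array come from 1 lung sample and 1 normalization, and these correlations are descriptions with no test.

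The 10 other genes most like the mean of the set included 4 from a list of 20 further mesothelial genes. Aldh1a2, the retinoic acid-synthesising enzyme of the mesothelium, had the highest correlation of all 12978 other genes (r = 0.94, rho = 0.86, and 0.88 without CD9KO 2). Its signal was 303, 313, 319 and 369 in wild type, 371, 358, 398, 409 and 355 in CD151KO, and 324, 213, 438, 271 and 383 in CD9KO, so CD9KO again held both ends. Cldn15, a claudin gene of tight junctions, ranked 4 (r = 0.89, 0.87 without CD9KO 2), Igfbp5, a binding protein of insulin-like growth factors, ranked 5 (0.86 and 0.71), and Rarres2, which codes for the chemoattractant chemerin, ranked 10 (0.81 and 0.63). The other 6 were Gpc3, a surface proteoglycan gene (r = 0.92), the complement gene C2 (0.91), the heparan sulfatase gene Sulf1 (0.86), the Wnt modulator gene Sfrp2 (0.85), Sbsn (0.82) and the folate receptor gene Folr2 (0.82). Their rho values ran from 0.54 to 0.89 over the 10 genes. All 10 were lowest on CD9KO 2. They were chosen by r with a mean that is itself far lowest on that array, so this is no separate observation. Without the 2 arrays farthest from the median of the mean z score (CD9KO 2 and 4) r ranged from 0.50 to 0.86. Sulf1 and Sfrp2 were higher in CD151KO than in CD9KO (log2 0.38 and 0.66, limma adjusted p = 0.0232 and 0.0155), and the other 8 did not pass in any of the 3 comparisons. Between the knockouts 10.1% of all genes passed. Picking genes by r with a mean that is far lowest on a CD9KO array favours such a difference. These 2 results are therefore no separate observation either.

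**Figure D4:**
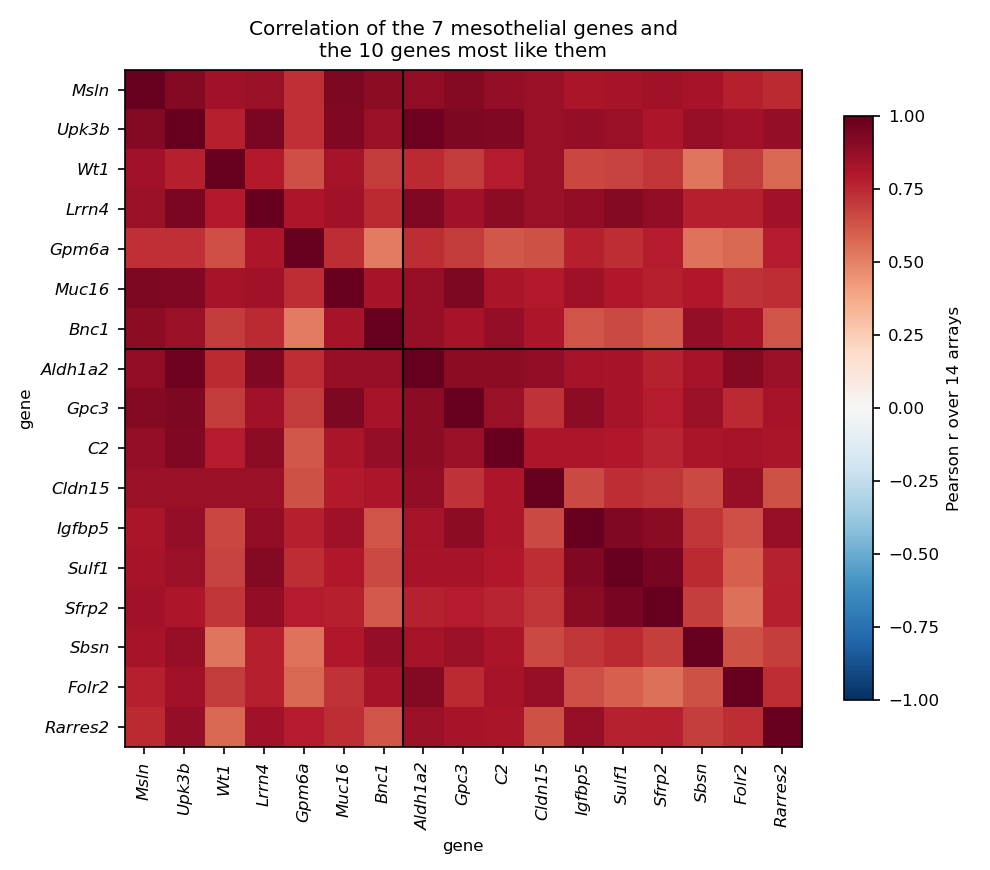
Pearson correlation over 14 arrays between the 7 mesothelial genes (above and left of the black lines) and the 10 genes most like their mean, on log2(signal + 16) values, with colour from -1 (blue) to 1 (red). The 21 pairs of members run from 0.52 to 0.94, and the 6 pairs with Gpm6a from 0.52 to 0.81.

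Of the 20 further mesothelial genes 15 were tested, and Gata4, Itln1, Pkhd1l1, Prg4 and Tbx18 lay below the filter. Their median correlation with the mean of the 7 genes was 0.56, beside -0.0033 for all genes, and 8 of 15 had r above 0.5, against 2.40% of all genes. Part of this rests on CD9KO 2. Without that array Upk1b (0.46), Nkain4 (0.39) and Ildr2 (0.38) lay below 0.5, where they had 0.58, 0.66 and 0.56 over all arrays. Rspo1 had 0.60 without it (0.73 with it), and Aldh1a2, Cldn15, Igfbp5 and Rarres2 had 0.63 to 0.88. Efemp1 and Igfbp6, the 2 with the highest signal, had r of 0.39 and -0.10. The rest of the tested list did not follow the members either. Gata6 had r = 0.20, Slpi 0.15, Calb2 -0.14, Anxa8 -0.15 and Fgf9 -0.27. In the comparisons with wild type 0 of 15 passed with limma, and 1 of 15 in CD151KO and 3 of 15 in CD9KO had an unadjusted p under 0.05, where 11.1% and 25.4% of all genes did. Between the knockouts 2 of 15 passed, beside 10.1% of all genes. Anxa8, an annexin gene, was higher in CD151KO (log2 0.51, adjusted p = 0.0314) and Igfbp6 lower (log2 -0.22, adjusted p = 0.0355), and 13 did not pass. Upk1b, the tetraspanin partner of uroplakin 3 proteins, measured 554 ± 60.3 in wild type (SD, n = 4), 674 ± 70.4 in the 5 CD151KO arrays and 600 ± 103 in the 5 CD9KO arrays and did not pass in any comparison.

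Of 13 family relatives of the members 7 were tested, with a median r of 0.11 with the mean of the 7 genes: Bnc2 had r = 0.30, Gpm6b 0.20, Muc4 0.16 and Muc1 -0.13. Muc1, an epithelial membrane mucin gene, was higher in CD151KO than in CD9KO (log2 0.14, limma adjusted p = 0.0478), and the other 6 did not pass in any comparison. Between the knockouts 10.1% of all genes passed. Of 9 partners and targets of Wt1, with a median r of -0.092, Basp1, a corepressor of WT1, had r = 0.60. The rest ran from -0.39 (Nphs1) to 0.18 (Wtap). Basp1 was higher in CD151KO than in CD9KO (log2 0.39, limma adjusted p = 0.0268). Amhr2 was lower in CD9KO than in wild type (log2 -0.29, limma adjusted p = 0.0489) and than in CD151KO (adjusted p = 0.0489). Podxl was higher in CD9KO than in wild type (log2 0.17, limma adjusted p = 0.0364). In this list 1 of 9 rose and 1 fell in CD9KO against wild type, where 5.51% of all genes passed. Between the knockouts 2 of 9 passed, beside 10.1% of all genes. The keratins Krt8, Krt18, Krt19 and Krt7, which mesothelium shares with lung epithelium, had r from -0.28 to 0.07. In the same list of 7 simple epithelial genes Ezr had r = 0.46, Cdh1, which codes for E-cadherin, 0.44 and the tight junction gene Tjp1 -0.056.

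Marker lists of the other cells that whole lung can hold had median correlations between -0.16 (cardiac muscle, 5 genes) and 0.32 (fibroblast, 7 genes) with the mean of the 7 genes. In the fibroblast list Dcn had r = 0.62 (0.53 without CD9KO 2) and Inmt 0.07. The airway gene Scgb1a1 had 0.61 (0.65 without CD9KO 2) and Sftpc 0.57 (0.38). Cldn18 of the alveolar type 1 list had 0.45 (0.58). An r above 0.5 over all arrays was found in 1 of 7 fibroblast, 1 of 6 airway and 1 of 4 alveolar type 2 genes. The remaining cell lists had 0, and of all genes 2.40% had such an r. The summed airway signal had r = 0.35 (rho = 0.50) with the mean of the 7 genes. On CD9KO 2 the summed signal of the 7 members was 2379, where the other arrays ranged from 2974 to 4157. There the summed signal was 28777 for the fibroblast list (other arrays 28252 to 32552), 52048 for alveolar type 1 cells (49914 to 54744), 72250 for airway epithelium (70741 to 74228) and 6172 for cardiac muscle (3753 to 7841), each inside the range of the others. The simple epithelial sum, 23555, lay close to the lowest of the others (23551 to 25498). Single genes weigh heavily in such sums, and Inmt makes up most of the fibroblast one. Gene by gene, CD9KO 2 was the lowest array for 2 of 7 fibroblast genes, Col1a1 (131 against a mean of 181 on the others) and Lum (183 against 250). It was also lowest for 2 of 5 thymus and lymph node genes (Ms4a1 and Cr2), 2 of 7 simple epithelial genes (Krt19 and Ezr) and 1 of 4 alveolar type 2 genes (Sftpc). The count was 0 of 6 for alveolar type 1, 0 of 6 for airway, 0 of 5 for cardiac and 0 of 4 for endothelial genes. For skeletal muscle it was 0 of 3 and for adipose 0 of 2, beside 7 of 15 for the further mesothelial genes. The thymus and lymph node list, at 582, was lowest of the 14 arrays (others 597 to 1550), and its B cell gene Ms4a1 measured 201 there, also the lowest. The part of these cells in the profile was not tested. Of the 49 genes tested in the lists of other cells and of simple epithelium, 0 passed with limma in CD151KO against wild type, 3 in CD9KO against wild type and 6 between the knockouts, that is 0%, 6.12% and 12.2%, near the shares of all genes (0.778%, 5.51% and 10.1%). The cardiac genes Myh6 (1844 ± 284 against 1111 ± 177, adjusted p = 0.0275) and Actn2 (132 ± 17.8 against 88.9 ± 14.3, adjusted p = 0.0275) and the fibroblast gene Pdgfra (log2 0.26, adjusted p = 0.0313) were higher in CD9KO than in wild type. Between the knockouts Abca3, a lipid transporter gene of alveolar type 2 cells (log2 0.36, adjusted p = 0.0041), the endothelial claudin gene Cldn5 (0.22, 0.0429) and Ezr, which links membrane proteins to actin (0.16, 0.0227), were higher in CD151KO. Tcf21, a fibroblast transcription factor gene, was lower there (log2 -0.36, adjusted p = 0.0377), as were Myh6 and Actn2 (-0.56 and -0.38, adjusted p = 0.0389 and 0.0402). Cartilage markers (Acan, Col2a1, Cnmd, Matn1) all lay below the filter.

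**Figure D5:**
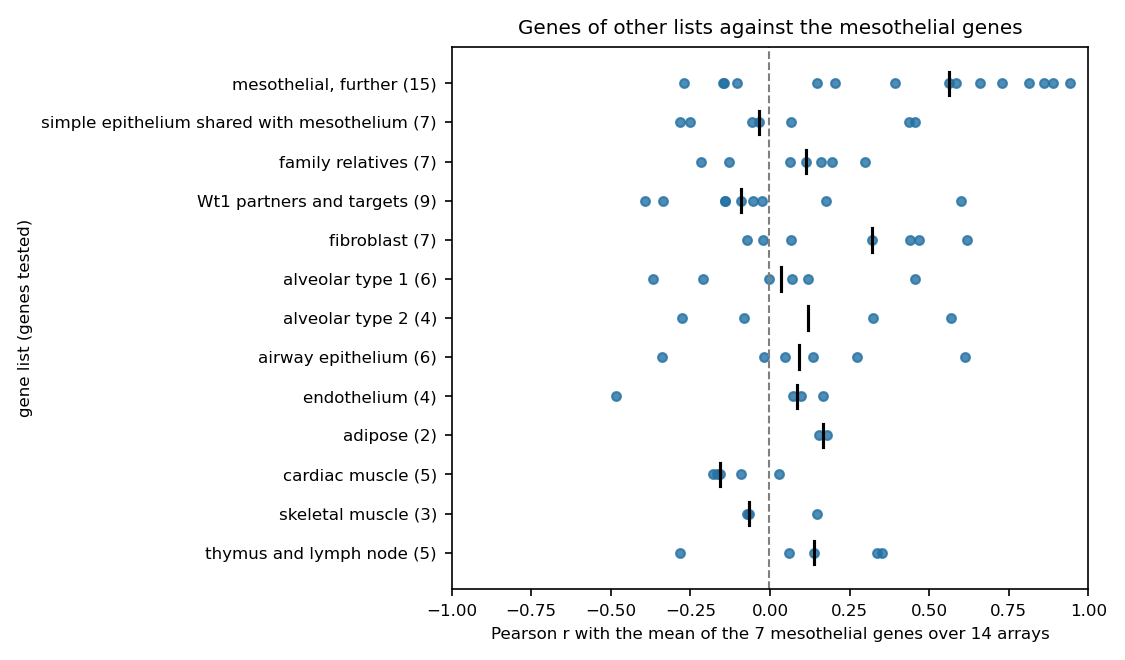
Pearson correlation over 14 arrays of each tested gene (points) with the mean z score of the 7 mesothelial genes, by gene list (y axis, number of genes in brackets), with the list median as a black bar and the median of all genes as a dashed line. The further mesothelial genes reach from -0.27 to 0.94 with a median of 0.56, and the list medians of the other cell types lie between -0.16 and 0.32. CD9KO 2 is included, and without it Upk1b, Nkain4 and Ildr2 fall below 0.5.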

How the data were processed

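The deposited values are normalized intensities, linear and never below 0, given per the labels as 1 value for each probe set and array. Per the submitters' processing notes Affymetrix Expression Console and MAS5 were used, without a version or role. How probes were summarised and normalized is therefore unknown here. Of 45101 probe sets, 5.15% had exactly equal values on 2 or more arrays. Names came from the platform annotation, which gave 1 symbol for 34958 probe sets, several for 932 and none for 9211. Only the first kind, without controls, was used.

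Each gene took its probe set of highest mean, and genes below the 40th percentile of mean log2(signal + 16) over all probe sets other than controls (a signal of 53.4) were left out. limma 3.58.1 (R 4.3.3; lmFit, then eBayes with a trend, 11 residual degrees of freedom) fitted the 3 groups over all 14 arrays. Tests were two-sided, with Benjamini-Hochberg adjustment over 12985 genes. Differences on this scale understate those of low signals. The procedure was run on simulated data with independent noise for each gene. Such data do not hold the variation between arrays that the members shared. Alternatives changed the pseudocount, normalization, filter, probe set rule, samples and fit.

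The members and lists were chosen with earlier results of these data known. Named genes were the members, Cd151, Cd9, the passing genes (up to 4 per comparison) and the 2 of highest signal in each other list, and the 10 genes with the highest Pearson r with the mean z score of the members. Further genes named for a correlation or as markers, and the 3 promoter motifs, were chosen with values in view. The number of arrays limits the precision. Plots were made in Python 3.11.15 with matplotlib 3.10.9.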

Additional observations from a re-analysis of the deposited data

Results flagged for a closer look

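The second probe set of Gpm6a gave 764 on CD9KO 2, and 943, 928, 928 and 929 on the other CD9KO arrays. The gap below was 0.914 of the group's range, above the limit of 0.71 that Dixon's test sets for 5 samples. Of 27 sets of values tested this way (9 probe sets in 3 groups) 1 passed its limit, and chance passes about 1 in 20. For the other 8 probe sets CD9KO 2 was also the lowest CD9KO array, without passing the limit.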

How the results depend on the processing

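Of 561 refits of single members, 544 kept the sign and the side of the threshold, 13 turned the sign and 4 passed the threshold, all for Lrrn4 between the knockouts. In CD9KO against wild type, leaving out each array in turn gave Msln -0.15 to 0.14, Upk3b -0.35 to 0.059, Wt1 -0.20 to 0.047, Muc16 -0.16 to 0.079 and Bnc1 -0.066 to 0.24, and Bnc1 between the knockouts -0.0055 to 0.30. 0 of 7 members passed against wild type in every alternative run. Wt1 and Bnc1 fell below the filter at the 60th percentile and have no value there. The median r of the 21 pairs was 0.68 without CD9KO 2 and 0.81 to 0.87 in the other settings. Between the knockouts 1 member passed with the filter at the 60th percentile and 0 to 1 on leaving out an array. The labels do not say that replicate numbers mark a pairing. Deviations of same-numbered arrays correlated at 0.59, -0.13, 0.45 and 0.26 (numbers 1, 3, 4 and 5) between CD151KO and wild type, 0.0043 to 0.18 between CD9KO and wild type and -0.098 to 0.21 between the knockouts. In no comparison did every pair exceed 0.1, so the main fit treated the samples as unpaired. This rule does not show that the numbers are without meaning. By rising number the first principal component was -18.5, -4.97, 0.81 and 1.48 in wild type and -17.2, -8.01, -4.80, 1.11 and 2.46 in CD151KO. In CD9KO it was 7.23, 7.46, 9.69, 13.4 and 9.89. What the numbers stand for was not tested. At most 3 of 4 samples of a group correlated best with their own number. With the replicate block 1 member passed between the knockouts (Lrrn4, adjusted p = 0.0163), the sign of Msln in CD9KO against wild type turned (0.038), and 1591 genes passed in CD9KO against wild type. In CD151KO against wild type the block gave 0.47 for Lrrn4 (limma adjusted p = 0.207) and 0.39 for Upk3b (adjusted p = 0.462). Without the block these differences were 0.35 and 0.26.

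Over all genes, 101 passed in CD151KO against wild type, 335 with array weights, 39 with only the compared groups, 45 without wild type 1 and CD151KO 1, and 24 to 98 on leaving out an array (lowest without wild type 4). In CD9KO against wild type 715 passed, 1090 with array weights, 1242 with every probe set, 405 without those 2 arrays, and 158 to 866 on leaving out an array (lowest without wild type 3). Between the knockouts 1313 passed, and 682 (without CD9KO 5) to 1939 on leaving out an array. The cause was not tested.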

Other observations

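On CD9KO 2, 40 of the genes tested were lowest of the 14 arrays and at least 1.5 times below the mean of the other 13. They included 5 members (Upk3b, Lrrn4, Bnc1, Msln and Muc16) and the further mesothelial genes Aldh1a2 and Igfbp5. Genes of other cells stood beside them, chosen here after their values were seen: the macrophage receptor Marco (50.9 against a mean of 131), the B cell genes Ms4a1 (201 against 402) and Cd79b (167 against 293), the pericyte gene Rgs5 (199 against 393) and the collagen Col3a1 (1742 against 2871). The same count was 157 on wild type 1 and 107 on CD151KO 1, with 1 member (Wt1) and 0 members among them. It was 39 on CD151KO 2 and on CD9KO 4, 38 on CD9KO 5 and 31 on CD9KO 3. On the remaining arrays it ran from 1 (CD151KO 4) to 19 (wild type 5). None of these further counts included a member.

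Anxa8 ran against the members within CD9KO. It measured 317, 340 and 325 on CD9KO 1, 3 and 5, and 554 and 524 on CD9KO 2 and 4, the arrays with the lowest mesothelial mean. In wild type it measured 510 to 641 and in CD151KO 511 to 635, and over all 14 arrays its correlation with the mean of the 7 genes was -0.15.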
